A study of Neurospora crassa with 18 samples.

Results

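Levels of mRNA in mycelia of *Neurospora crassa* were compared between 0.1% and 2% glucose medium, in the *cpc-1Δ* strain and in WT. Of 9730 genes, 23 passed the limits set here for a higher level in 0.1% glucose medium in both strains. They were chosen on mRNA-seq values, by a ratio of group means of at least 3 in each strain and a ratio under 2 for 3-AT in WT, among the 4074 genes that were above 0 in all 15 *cpc-1Δ* and WT libraries with a mean of at least 10 RPKM. RPKM is a read number scaled to transcript length and to the reads of the library, and each library was divided by its median ratio to the geometric mean of the 15 libraries, so that "level" below means scaled RPKM. Of the 23 genes, 7 have a symbol in the annotation used here, namely *hgt-1*, *cdt-1*, *cdt-2*, *gla-1*, *gh28-2*, *mfa-1* and *fdh*, and 16 have a locus tag only. The ratios with glucose and with 3-AT in WT chose the genes, so the values from these libraries are given as a description. A test of the 23 genes is given only where the choice did not use the comparison; in the others, counts of genes passing limma describe these libraries and are no test.

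The 18 libraries came from 3 strains. *cpc-1Δ* is a deletion mutant of the *Neurospora* knockout library, studied in 0.1% glucose medium (n = 2 libraries), in 2% glucose medium (n = 2) and in 2% glucose medium with 3-AT (n = 3). *cpc-1Δ*, *cpc-1*(WT) is the same mutant with a Flag-tagged *cpc-1* at the *csr-1* locus, driven by the promoter and 5′ UTR of *ccg-1* and not by its own, and was studied only in 2% glucose medium with 3-AT (n = 3). WT is strain FGSC4200, in 0.1% glucose medium (n = 2), in 2% glucose medium with 3-AT (n = 3) and in 2% glucose medium (n = 3). All cultures were started from fresh conidia and grown in Vogel's medium under constant light, and 3-AT was present at 5 mM for 8 h. The 0.1% glucose medium also held 0.17% arginine, which the 2% glucose medium did not, so that less glucose and added arginine cannot be told apart. The labels do not say whether libraries of a group came from separate cultures, and p-values measure only the spread between these libraries.

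When glucose is plentiful, filamentous fungi keep genes for the use of other carbon sources switched off, in part through the repressor CRE-1. When glucose runs low, this repression is relieved, and genes for high-affinity sugar transporters and for secreted enzymes that release sugars from starch, sucrose or plant cell walls are transcribed. CPC-1 is a transcription factor that activates genes of amino acid biosynthesis during amino acid starvation, as Gcn4 does in Saccharomyces cerevisiae. 3-AT inhibits histidine biosynthesis and is used to bring this starvation about.

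The level of *cpc-1* was 1.81 to 3.82 in the 7 *cpc-1Δ* libraries, 60.6 to 70.4 in the 3 *cpc-1Δ*, *cpc-1*(WT) libraries and 319 to 1691 in the 8 WT libraries. The *cpc-1Δ*, *cpc-1*(WT) values were tabulated apart from the others, under the heading GCN4WT where the label says *cpc-1*(WT), so strain and tabulation cannot be told apart. Spearman's rho across genes was 0.94 to 0.97 between libraries of a group. No read counts were at hand, so the sequencing depth of each library is unknown. A value of 0 was not read as absence, since 476 genes with a mean of at least 10 were listed at 0 in at least 1 of the 15 libraries. Dividing by the median ratio lowered the log2 ratio of 0.1% to 2% glucose by 0.57 in WT and moved it by less than 0.01 in *cpc-1Δ*. It lowered the log2 ratio of *cpc-1Δ* to WT by 0.59 in 2% glucose medium, by 0.47 with 3-AT and by 0.01 in 0.1% glucose medium, and that of *cpc-1Δ*, *cpc-1*(WT) by 0.23 to *cpc-1Δ* and by 0.71 to WT. For the log2 ratio of 3-AT to no 3-AT, the value as deposited minus the scaled value was -0.49 in *cpc-1Δ* and -0.38 in WT. In bulk mycelia, fewer cells of a kind and less mRNA per cell cannot be told apart.

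The 23 genes had ratios of 0.1% to 2% glucose between 3.08 and 83.7 in *cpc-1Δ*, with a median of 3.95, and between 3.48 and 379 in WT, with a median of 21.5. Of the 4074 genes that could be chosen, 1.10% had a ratio of at least 3 in *cpc-1Δ* and 6.01% in WT, and 35 genes had it in both. The 12 of these that were left out had a 3-AT ratio in WT of 2 or more and included *acu-6* and *fbp-1*, which encode enzymes of gluconeogenesis. The ratio in WT was the larger one for 19 of the 23 genes and the ratio in *cpc-1Δ* for *gla-1*, NCU05627, *mfa-1* and NCU01905, of which NCU01905 changed sides with the values as deposited. Of the 4074 genes, 49.2% had the larger ratio in WT. Of the 245 genes with a ratio of at least 3 in WT, which the rule also asked for, 241 did. Together the 23 genes took 0.686 to 0.718% of the summed RPKM in *cpc-1Δ* in 0.1% glucose medium, against 0.0675 to 0.0720% in 2% glucose medium. In WT they took 2.21 to 2.28% in 0.1% glucose medium, against 0.102 to 0.109% in 2% glucose medium.

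**Figure D1:**
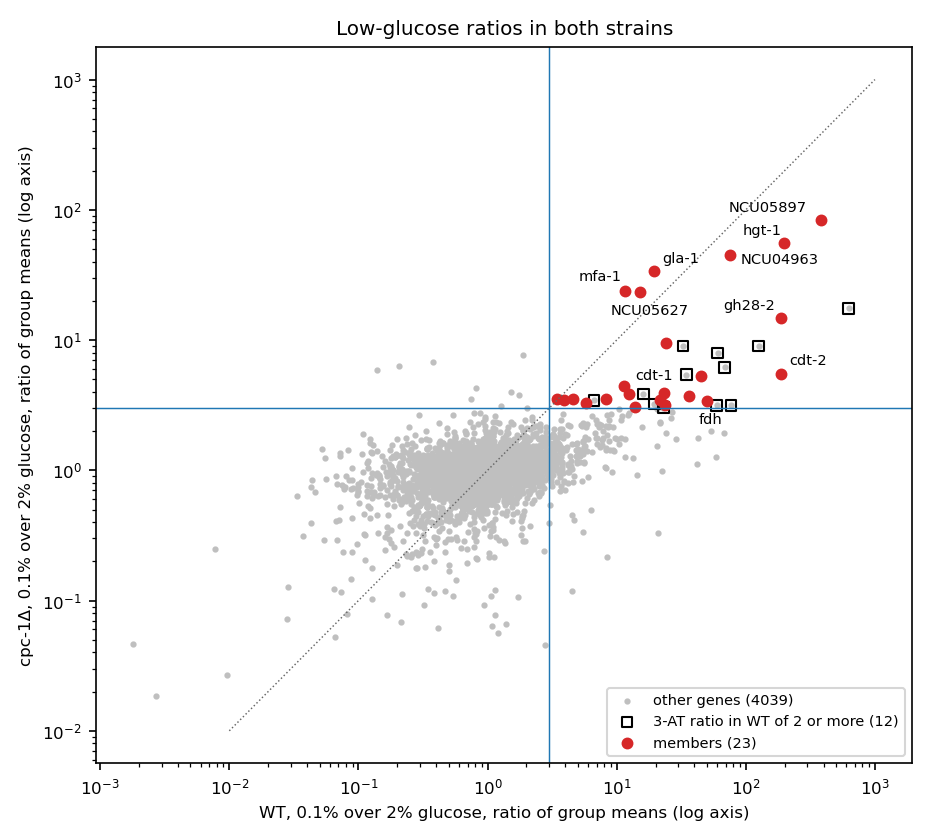
Ratio of the group mean in 0.1% glucose to that in 2% glucose, in WT (horizontal log axis) and in *cpc-1Δ* (vertical log axis), for the 4074 genes above 0 in 15 libraries with a mean of at least 10. The 23 genes (red) lie above both lines at a ratio of 3, and 19 of them lie below the dotted line of equal ratios; open squares are the 12 genes left out for their 3-AT ratio.

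Sugar transporters were 3 of the 7 genes with a symbol. *hgt-1*, a high-affinity glucose transporter, was at 733 and 763 in *cpc-1Δ* in 0.1% glucose medium, against 14 and 13 in 2% glucose medium. In WT it was at 1148 and 1123 in 0.1% glucose medium, against 5.63, 5.55 and 6.06 in 2% glucose medium. These are ratios of 55.3 in *cpc-1Δ* and 198 in WT, and the lower ratio in the mutant came with a higher level in 2% glucose medium, where both mutant libraries were above all 3 WT libraries.

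The cellodextrin transporters *cdt-1* and *cdt-2*, which take up soluble products of cellulose, had nearly the same level in 0.1% glucose medium in WT and differed in the mutant. *cdt-1* was at 28.3 and 24.3 in *cpc-1Δ* in 0.1% glucose medium, against 6.52 and 6.81 in 2% glucose medium. In WT it was at 145 and 157, against 6.49, 6.85 and 6.10. *cdt-2* reached 3.51 and 3.25 in *cpc-1Δ* in 0.1% glucose medium, against 0.425 and 0.802 in 2% glucose medium, and 141 and 146 in WT, against 1.04, 0.456 and 0.823. The ratio for *cdt-2* was thus 5.51 in *cpc-1Δ* and 186 in WT, the widest gap between the strains among the 23 genes, and it rests on levels in 2% glucose medium of about 1 or less in both strains. *cdt-2* passed the limit of the rule on the mean through the 2 WT libraries of 0.1% glucose medium, being at 3.51 or less elsewhere.

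*gla-1* and *gh28-2* encode secreted hydrolases. *gla-1*, the glucoamylase that releases glucose from starch, was at 316 and 329 in *cpc-1Δ* in 0.1% glucose medium, against 8.86 and 10.3 in 2% glucose medium. In WT it was at 349 and 355, against 18.2, 18.1 and 18.2. The levels in low glucose were close in the strains, and the larger ratio in the mutant, 33.7 against 19.4 in WT, went with a lower level in 2% glucose medium. *gh28-2*, a member of glycoside hydrolase family 28, whose enzymes degrade pectin, reached 2.82 and 4.04 in *cpc-1Δ*, against 0.279 and 0.184, and 115 and 114 in WT, against 0.533, 0.837 and 0.454. Like *cdt-2*, it passed the limit of the rule on the mean through the 2 WT libraries of 0.1% glucose medium. The same held for NCU06358, NCU03648 and NCU07385, whose mean levels over the other libraries of the rule were under the limit. Their levels there were at most 13.3, 20.2 and 25.2, in turn. For all of these genes, a low level in the mutant relative to WT in 0.1% glucose medium was thus in part chosen.

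*mfa-1* encodes the precursor of a mating pheromone. It was at 96.6 and 103 in *cpc-1Δ* in 0.1% glucose medium, against 4.23 and 4.21 in 2% glucose medium, and at 675 and 698 in WT, against 59.8, 58.6 and 60.5. The mutant was thus lower in both media, at 14.6% of the WT mean in 0.1% and at 7.07% in 2% glucose medium. *matA-1*, *matA-2* and *matA-3*, genes of mating type A, were listed at 0 in all 18 libraries. *fdh*, which encodes formate dehydrogenase, was at 48.4 and 49.3 in *cpc-1Δ* in 0.1% glucose medium, against 13.7 and 15.2 in 2% glucose medium, and at 801 and 772 in WT, against 14, 16 and 17.1. The strains overlapped in 2% glucose medium for *fdh* and were far apart in 0.1%.

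Among the 16 genes with a locus tag only, NCU05897 and NCU04963 stood out by their ratios. NCU05897 was at 144 and 157 in *cpc-1Δ* in 0.1% glucose medium, against 1.48 and 2.11 in 2% glucose medium, and at 656 and 666 in WT, against 1.27, 2.19 and 1.77. It had the largest ratio of the 23 genes in each strain, 83.7 in *cpc-1Δ* and 379 in WT. NCU04963 was at 304 and 299 in *cpc-1Δ*, against 6.51 and 6.99, and at 1477 and 1487 in WT, against 19.0, 19.6 and 20.2. In WT its level in 0.1% glucose medium was the highest of the 23 genes and ranked 18 among the 4074, whereas it ranked 2556 in 2% glucose medium.

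NCU05627 resembled *gla-1*, with 415 and 408 in *cpc-1Δ* in 0.1% glucose medium, against 17.6 and 17.4 in 2% glucose medium, and 446 and 478 in WT, against 29.7, 31.5 and 30.7. NCU09698 was at the other end, with 14.8 and 16.1 in *cpc-1Δ*, against 3.69 and 4.57, and 647 and 690 in WT, against 18.8, 17.6 and 18.6. The replicates of each group were close for both genes. NCU03648 (20.2 and 19.0 in *cpc-1Δ*, 192 and 193 in WT, in 0.1% glucose medium) and NCU06358 (12.9 and 13.3 in *cpc-1Δ*, 56.1 and 59.6 in WT) had ratios of 5.27 and 9.43 in *cpc-1Δ* and of 45.2 and 24.1 in WT.

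In the other 10 genes the ratio was 3.08 to 4.48 in *cpc-1Δ* and 3.48 to 23.6 in WT. Replicates differed widely for 3 of them. NCU08541 was at 92.5 and 143 in *cpc-1Δ* in 0.1% glucose medium and at 559 and 905 in WT, yet all 4 values lay above the 56.9 to 61.2 of WT in 2% glucose medium. NCU04904 was at 92.2 and 97.1 in *cpc-1Δ* in 0.1% glucose medium, against 39.6 and 18 in 2% glucose medium. NCU03318 was at 79.8 and 79.9 in WT in 0.1% glucose medium, against 4.20, 27.5 and 29.4 in 2% glucose medium, so that its log2 ratio of 1.97 was 1.49 without WT replicate 1. Without 1 library at a time the rule found 21 to 26 genes, and the genes it lost were NCU03318 (without any of the 3 WT libraries in 2% glucose medium, *cpc-1Δ* replicate 1 in 2% or *cpc-1Δ* replicate 1 in 0.1% glucose medium), NCU04904 (without *cpc-1Δ* replicate 2 in 2% glucose medium), NCU00591 (without *cpc-1Δ* replicate 1 in 0.1%) and NCU06358 with *gh28-2* (without either WT library in 0.1%).

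Just inside the limits of the rule were NCU09931 and NCU00591, with ratios of 3.08 and 3.17 in *cpc-1Δ*, and NCU03648, with a 3-AT ratio of 1.85 in WT. NCU01275 and NCU02127, with ratios of 2.95 and 2.93 in *cpc-1Δ*, and NCU09864, with a 3-AT ratio of 2.12 in WT, were just outside.

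**Figure D2:**
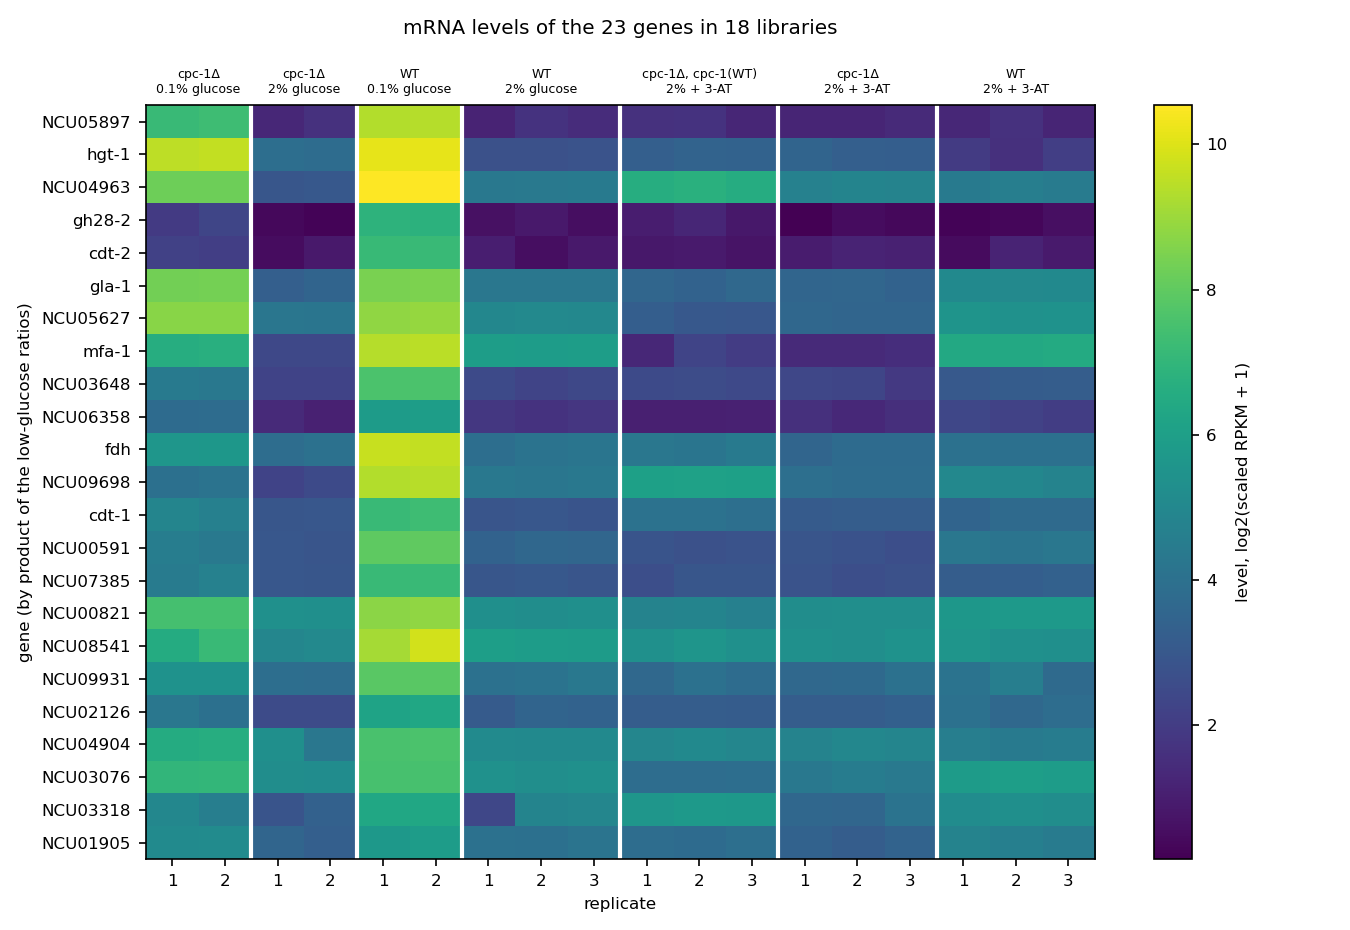
Level of each of the 23 genes (rows, by the product of the 2 low-glucose ratios) in each of the 18 libraries (columns, by group and replicate), as log2(scaled RPKM + 1). The libraries of 0.1% glucose medium are the brightest of each strain, with WT above *cpc-1Δ*, and replicate 1 of WT in 2% glucose medium stands apart for NCU03318 (4.20 against 27.5 and 29.4).

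In 0.1% glucose medium every *cpc-1Δ* library was below every WT library for 23 of the 23 genes, as it was for 43.8% of the 4074 genes. With upper-quartile scaling this held for 21, and *gla-1* then had a slightly higher mean in *cpc-1Δ*. The *cpc-1Δ* mean was between 2.31% (NCU09698) and 91.7% (*gla-1*) of the WT mean, with a median of 20.4%, where the median of the 4074 genes was 97.6%. By limma, *cpc-1Δ* was lower than WT for 21 of the 23 genes, against 26.8% of all 9013 genes tested, and higher for 0, against 21.5% of all genes. *gla-1* and NCU03318 did not pass. The rule drew on these libraries, so none of these shares is a test of the 23 genes.

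The genes spread over the whole of that range. *cpc-1Δ* was under 10% of WT for NCU09698, *cdt-2* (2.36%), *gh28-2* (3.00%), *fdh* (6.21%) and NCU00591 (8.30%). It was over 50% for *gla-1*, NCU05627 (89.1%), NCU03076 (69.7%), *hgt-1* (65.9%) and NCU01905 (63.5%), and the other 13 genes lay between. The 3 sugar transporters with a symbol lay at 2.36% for *cdt-2*, 17.4% for *cdt-1* and 65.9% for *hgt-1*. Genes with a locus tag only were not sorted by function.

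**Figure D3:**
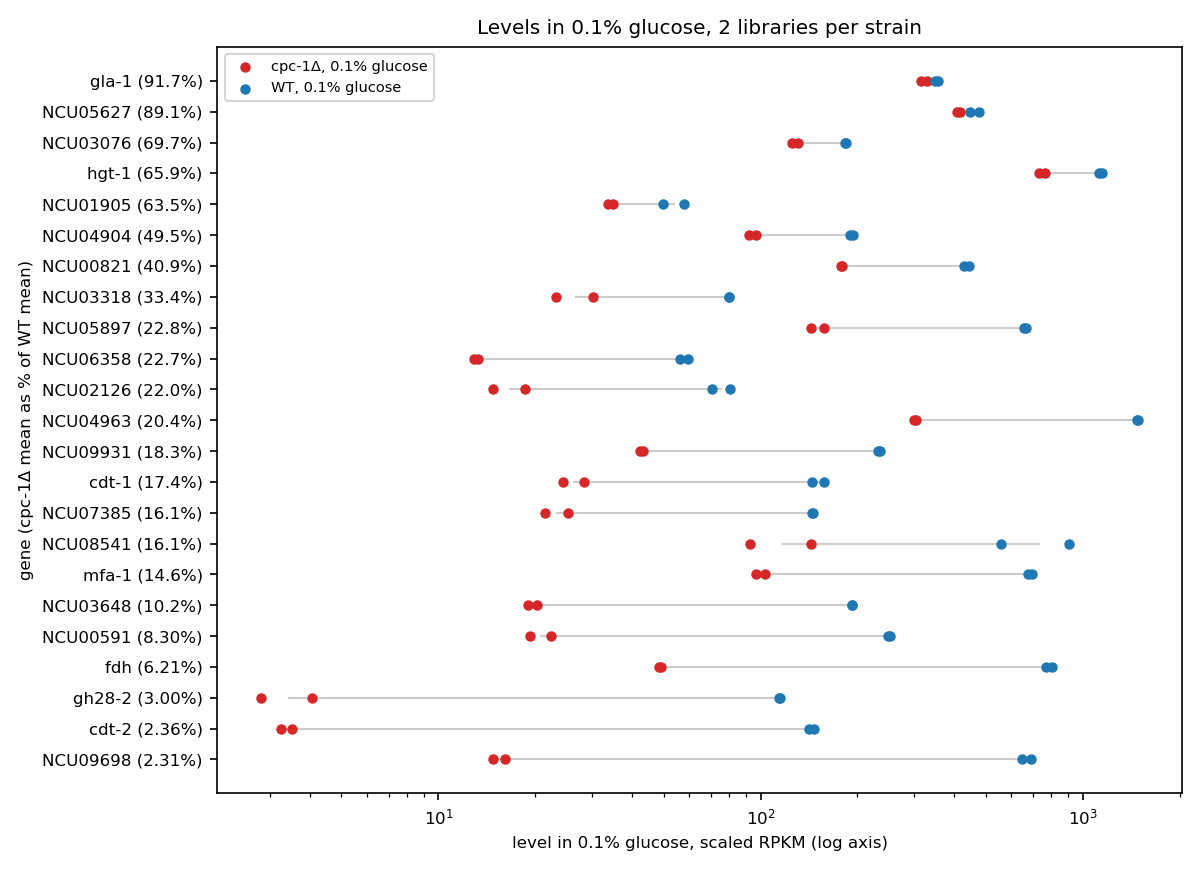
Level in 0.1% glucose medium (log axis, scaled RPKM) of the 23 genes in the 2 *cpc-1Δ* libraries (red) and the 2 WT libraries (blue), with the *cpc-1Δ* mean as a percentage of the WT mean beside each name and lines between the means. Red points are left of blue ones in every row, nearly touching for *gla-1* (91.7%) and furthest apart for NCU09698 (2.31%).

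In 2% glucose medium the strains were closer by the median of the 23 genes. They were further apart than in 0.1% glucose medium for *gla-1* (52.7% of WT), NCU05627 (57.2%), *mfa-1* (7.07%), NCU01905 (62.3%) and *hgt-1*. The *cpc-1Δ* mean was lower for 18 of the 23 genes, against 53.5% of the 4074 genes, but for 12 with the values as deposited. The median was 62.3% of WT, beside 97.0% for the 4074 genes. By limma 10 of the 23 genes were lower in *cpc-1Δ*, against 20.2% of all genes, and 1, *hgt-1*, was higher, against 20.0%. *hgt-1* in *cpc-1Δ* was at 235% of its WT mean, and at 353% with the values as deposited. Both low-glucose ratios had used these libraries, so none of these shares is a test of the 23 genes.

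With 3-AT, *hgt-1* was at 10.2, 8.83 and 8.55 in *cpc-1Δ*, against 2.90, 2.04 and 3.23 in WT. *mfa-1* was at 1.58, 1.60 and 1.85 in *cpc-1Δ*, against 83.5, 85.0 and 89.9 in WT, which is 1.95% of the WT mean. *gla-1* was at 10.7, 10.9 and 9.68 in *cpc-1Δ*, against 33.2, 32.0 and 32.9 in WT. The groups did not overlap for these genes, and *hgt-1* was the one with the higher level in the mutant. Over the 23 genes, the *cpc-1Δ* mean was lower than the WT mean with 3-AT for 19, but for 13 with the values as deposited. By limma it was lower for 15, against 24.8% of all genes, and higher for 2, against 25.0%, which is a description too, since the rule had used the WT libraries.

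Within a strain, the levels with and without 3-AT were nearer to each other than those in the 2 glucose media. The ratio of 3-AT to no 3-AT was between 0.398 (*mfa-1*) and 3.92 (NCU04963) in *cpc-1Δ*, with a median of 0.975, and between 0.474 (*hgt-1*) and 1.85 (NCU03648) in WT, where the rule set the upper limit. The mean with 3-AT was lower for 13 of the 23 genes in *cpc-1Δ* and higher for 17 in WT, but lower for 18 in *cpc-1Δ* and higher for 13 in WT with the values as deposited. In *cpc-1Δ* 2 genes had a ratio above 2. NCU04963 was at 25.3, 27.6 and 26.5 with 3-AT, against 6.51 and 6.99 without, and NCU09698 at 14.2, 13.2 and 13.1, against 3.69 and 4.57. In WT, NCU04963 was at 20.0, 23.2 and 21.1 with 3-AT, against 19.0, 19.6 and 20.2 without. By limma 3 of the 23 genes were higher with 3-AT in *cpc-1Δ*, against 15% of all genes, and 4 were lower, against 15.7%. In WT 13 were higher, against 21.8%, and 2 were lower, against 17.7%. The rule had used the WT ratio itself and both groups without 3-AT, so none of these shares is a test. For 6 of the 23 genes all libraries with 3-AT lay on opposite sides of those without it in the strains, as they did for 25.1% of the 4074 genes.

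One comparison did not use the ratios that chose the genes, that of *cpc-1Δ*, *cpc-1*(WT) with *cpc-1Δ* under 3-AT. It asks whether these mRNAs differed between histidine-starved mycelia with and without *cpc-1* expressed from the *ccg-1* promoter. Strain and tabulation cannot be told apart in it, as stated above. Of the 23 genes, 7 rose and 4 fell with *cpc-1*(WT), and 12 did not pass the threshold (limma on log2(scaled RPKM + 1) of the 9 libraries with 3-AT, Benjamini-Hochberg adjusted p under 0.05 over 8688 genes). Over all genes 16.1% rose and 13% fell. The median log2 fold change was 0.10 for the 23 genes and 0.00 for all genes tested. With the values as deposited 11 of the 23 genes rose and 4 fell.

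NCU09698 was at 66.2, 67.3 and 65.1 in *cpc-1Δ*, *cpc-1*(WT), against 14.2, 13.2 and 13.1 in *cpc-1Δ* (log2 fold change 2.21, SE 0.07, adjusted p = 3.1e-07). NCU03318 was at 48.4, 51.9 and 49.9, against 11.4, 11.0 and 16.4 (1.90, SE 0.13, adjusted p = 3.7e-05). NCU04963 was at 97.6, 107 and 95.4, against 25.3, 27.6 and 26.5 (1.88, SE 0.07, adjusted p = 1.4e-06). For these 3 genes the strains were far apart in every library, and the *cpc-1Δ*, *cpc-1*(WT) mean was 490%, 387% and 377% of the *cpc-1Δ* mean. It also exceeded the WT mean with 3-AT, at 229% for NCU09698, 134% for NCU03318 and 466% for NCU04963, and at 374%, 218% and 761% with the values as deposited. Over the 23 genes, *cpc-1Δ*, *cpc-1*(WT) was higher than WT with 3-AT for 8, against 24.4% of all genes, and lower for 11, against 25.2%, in a comparison with WT libraries that the rule had used. The median log2 fold change of the 23 genes in it was -0.32 and turned to 0.23 with the values as deposited, and the mean was lower than in WT for 13 genes, but for 10 with the values as deposited.

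*cdt-1*, *gh28-2*, *fdh* and NCU01905 rose as well. *cdt-1* was at 15.6, 15.6 and 14.2 in *cpc-1Δ*, *cpc-1*(WT), against 7.84, 8.24 and 8.19 in *cpc-1Δ* (0.83, SE 0.08, adjusted p = 1.6e-04). *fdh* was at 18, 17 and 20.6, against 10.6, 12.9 and 12.9 (0.58, SE 0.09, adjusted p = 0.003). *gh28-2* had a log2 fold change of 0.68 (SE 0.14, adjusted p = 0.01) at levels of 0.783 to 1.39, against 0.108 to 0.412, where the addition of 1 to the values makes the fold change smaller than the ratio of the levels. Its *cpc-1Δ*, *cpc-1*(WT) mean was 389% of the *cpc-1Δ* mean, and its log2 fold change was 1.70 with 0.1 added in place of 1 (SE 0.42, adjusted p = 0.023). NCU01905, with a log2 fold change of 0.50, was higher in every *cpc-1Δ*, *cpc-1*(WT) library (12.9 to 14.2) than in any *cpc-1Δ* library (8.25 to 10.1).

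NCU03076, NCU00821, NCU05627 and NCU06358 fell with *cpc-1*(WT), with log2 fold changes of -0.51, -0.50, -0.47 and -0.43. NCU03076 was at 13.5, 13.6 and 14 in *cpc-1Δ*, *cpc-1*(WT), against 18.8, 21.7 and 19.4 in *cpc-1Δ* (SE 0.06, adjusted p = 8.4e-04), and NCU05627 at 8.60, 7.15 and 6.94, against 11.1, 10.8 and 10.6 (SE 0.08, adjusted p = 0.0038). WT with 3-AT was higher than both, with 57.1, 62.3 and 58.8 for NCU03076 and 45.0, 40.9 and 42.5 for NCU05627.

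The 12 genes that did not pass included *hgt-1*, *gla-1*, *cdt-2* and *mfa-1*. *gla-1* was at 10.8, 9.78 and 11.5 in *cpc-1Δ*, *cpc-1*(WT), against 10.7, 10.9 and 9.68 in *cpc-1Δ* (0.04, SE 0.07, adjusted p = 0.77), and *hgt-1* at 8.73, 9.82 and 9.63, against 10.2, 8.83 and 8.55 (0.03, SE 0.13, adjusted p = 0.92). The groups overlapped for these genes, while WT with 3-AT lay above them for *gla-1* and below them for *hgt-1*. *mfa-1* was at 1.5, 3.79 and 3.01, against 1.58, 1.60 and 1.85 (0.44, SE 0.21, adjusted p = 0.18), and it passed the threshold without *cpc-1Δ*, *cpc-1*(WT) replicate 1 (0.71, adjusted p = 0.0026). A gene that did not pass is not thereby shown to be the same in both strains.

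**Figure D4:**
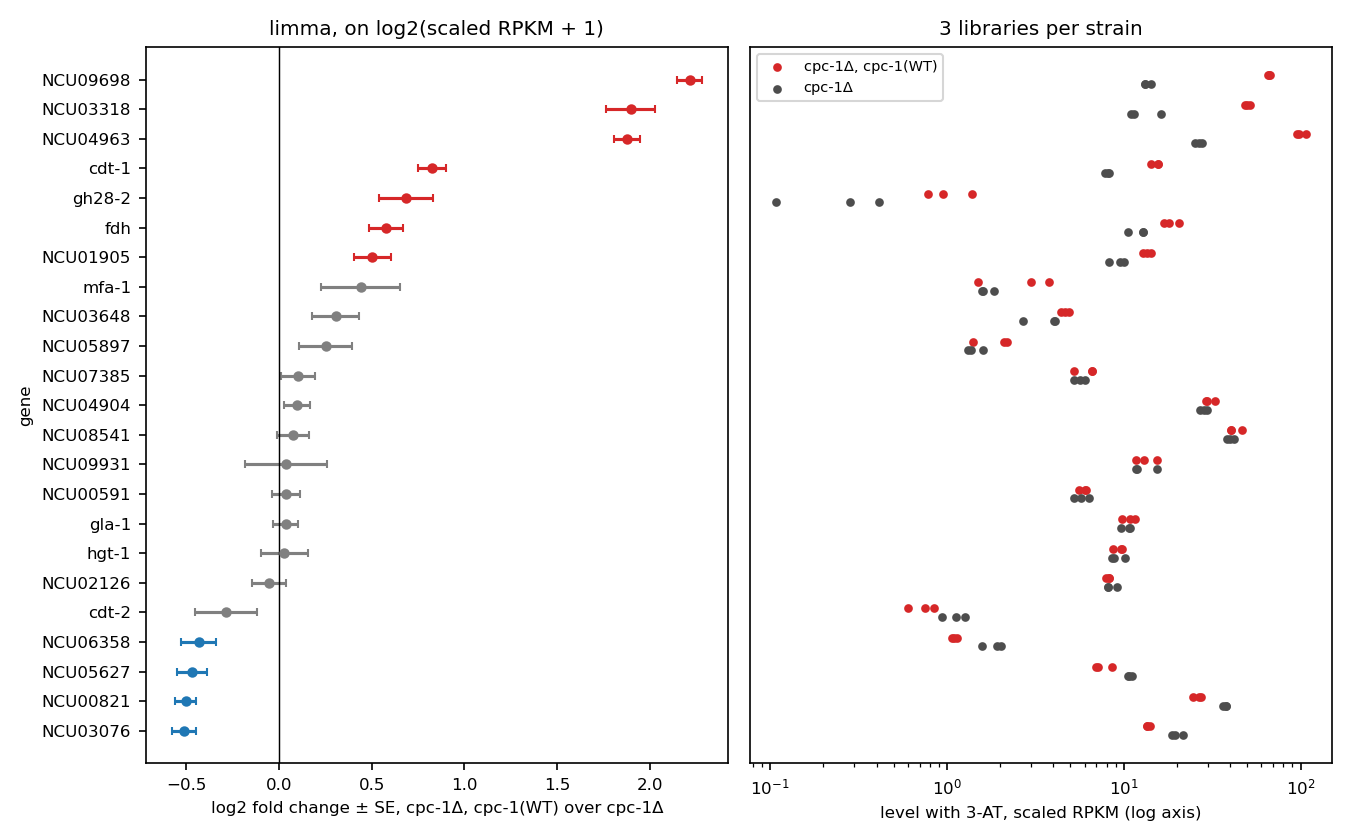
Left, log2 fold change with its SE of *cpc-1Δ*, *cpc-1*(WT) over *cpc-1Δ* under 3-AT for the 23 genes (limma; red, 7 higher; blue, 4 lower; gray, 12 that did not pass). Right, the levels in the 3 *cpc-1Δ*, *cpc-1*(WT) libraries (red) and the 3 *cpc-1Δ* libraries (dark) on a log axis of scaled RPKM; NCU09698, NCU03318 and NCU04963 have log2 fold changes of 2.21, 1.90 and 1.88, and *gh28-2*, at 0.68, has a gap on the right (389% of the *cpc-1Δ* mean) like that of NCU03318 (387%).

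The genes around this set were looked at through lists of pathway genes, tested in the same fits. By limma, 13.5% of all 9013 genes were higher and 14.2% lower in 0.1% than in 2% glucose medium in *cpc-1Δ*, and 26.6% were higher and 26.5% lower in WT. Of the 23 genes 22 passed as higher in *cpc-1Δ* and 23 in WT, a direction that the rule had fixed. NCU03318 did not pass in *cpc-1Δ*, with a log2 fold change of 1.67 (SE 0.67). Of 5 genes named for arginine catabolism, 2 had a usable name, *aga-1* (arginase) and *ota* (ornithine transaminase). Both rose in each strain, by 1.35 and 0.79 on the log2 scale in *cpc-1Δ* and by 1.14 and 1.74 in WT.

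Of 7 genes of the glyoxylate cycle and gluconeogenesis, none of which is among the 23, 6 rose in 0.1% glucose medium in each strain, with a median log2 fold change of 1.27 in *cpc-1Δ* and 3.09 in WT. *acu-6*, the phosphoenolpyruvate carboxykinase, was at 69.8 and 85.8 in *cpc-1Δ*, against 8.03 and 9.28 in 2% glucose medium, and at 3193 and 3163 in WT, against 23.6, 27.1 and 25.0. The gene that did not pass, *acu-3* (isocitrate lyase), was listed at 0 in 1 WT library and at 846 in the other in 0.1% glucose medium. All 7 genes rose with *cpc-1*(WT) under 3-AT, *acu-6* by 2.90 on the log2 scale.

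Of the 3 genes for starch and sucrose use, *gla-1*, *inv* (invertase) and *col-26* (a regulator), 3 rose in each strain. *gla-1* is among the 23 genes, so the rule had fixed its rise. *col-26* rose by 0.65 on the log2 scale in *cpc-1Δ* and by 1.74 in WT. *inv* was at 1453 and 1488 in *cpc-1Δ* in 0.1% glucose medium, against 21.9 and 23.6 in 2% glucose medium, and at 1725 and 1719 in WT, against 20.0, 21.9 and 23.9. It was left out of the 23 genes because 1 WT library with 3-AT listed it at 0, where the other 2 had 28.7 and 28.5. The levels of *inv* were therefore close in both strains in 0.1% glucose medium, as those of *gla-1* were.

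Of 8 genes for plant cell wall degradation, 2 rose in *cpc-1Δ* (*cbh-1* and *clr-1*) and 5 in WT (*cbh-1*, *clr-1*, *clr-2*, *gh1-1* and *gh3-4*). *clr-1*, a regulator of cellulase genes, was at 18.6 and 17.5 in *cpc-1Δ* in 0.1% glucose medium, against 9.51 and 9.5 in 2% glucose medium, and at 45.9 and 35.1 in WT, against 10.7, 9.55 and 10.4. The 3 quinic acid genes with a usable name did not pass in either strain, but 1 rose in WT with the values as deposited. Of 4 carbon repression and stress regulators, 0 rose and 3 fell in *cpc-1Δ*, and 1 rose and 3 fell in WT. *cre-1* itself did not pass in *cpc-1Δ* (0.20, adjusted p = 0.073) and fell by 1.44 on the log2 scale in WT. *vib-1* and *nit-2* fell in each strain, by 0.49 and 0.61 in *cpc-1Δ* and by 1.33 and 2.39 in WT. *csp-1* fell by 1.12 in *cpc-1Δ* and rose by 0.45 in WT.

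Of 6 genes for stress and oxidant defence, 1 rose and 1 fell in *cpc-1Δ* and 2 rose and 2 fell in WT. Of 10 clock-controlled genes, 4 rose and 1 fell in *cpc-1Δ* and 5 rose and 3 fell in WT. Some of these calls rest on listed values of 0. The fall in *cpc-1Δ* was that of *ccg-14*, which in WT in 2% glucose medium was at 0, 0 and 374. *ccg-13* rose in *cpc-1Δ* from 0 in both libraries of 2% glucose medium. *ccg-4*, a fall in WT, was at 0.265 or less in every library. *ccg-1*, whose promoter drives the *cpc-1*(WT) construct, rose in both, by 1.01 in *cpc-1Δ* and by 2.97 in WT. With the values as deposited, the falls in WT were 1 for the stress list and 1 for the clock-controlled list.

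Markers of conidia, the asexual spores, moved with the medium and in different ways in the strains. Of 6 markers, 1 rose and 3 fell in 0.1% glucose medium in *cpc-1Δ*, and 4 rose and 1 fell in WT, where 0 fell with the values as deposited. *con-6* was listed at 0 in every library but those of 0.1% glucose medium, where it was at 4.25 and 5.28 in *cpc-1Δ* and at 54.2 and 44.1 in WT. The summed level of the 6 markers was 73.9 to 75.8 in *cpc-1Δ* in 0.1% glucose medium, against 119.9 to 135 in 2% glucose medium, and 324 to 327 in WT, against 52.3 to 651. The spread in WT in 2% glucose medium is that of *eas*, listed at 0 in 1 library, and without this gene the sums were 60.7 to 61.8 against 105.7 to 121 in *cpc-1Δ* and 283.6 to 283.7 against 51.3 to 52.3 in WT. Whether the makeup of the mycelium had a part in the values of the 23 genes was not tested.

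The 23 genes did not lie next to each other. The closest pair in the order of annotated genes, *cdt-1* and NCU00821, were 22 genes apart. Of 44 direct neighbors in the tables, 40 could be tested, and in 0.1% glucose medium 11 of these were higher in *cpc-1Δ* and 19 in WT, against 13.5% and 26.6% of all genes. In each strain 7 were lower, against 14.2% of all genes in *cpc-1Δ* and 26.5% in WT. Of those above 0 in 2% glucose medium, 0 reached a ratio of 3 in *cpc-1Δ* and 6 did in WT. Of the 4074 genes, which unlike the neighbors had to pass limits on level, 1.10% and 6.01% did. NCU05896, NCU00819 and NCU16936, which are among the 6, had WT means of 0.171, 0.748 and 2.63 in 0.1% glucose medium. Neighbors at 0 in 2% glucose medium have no ratio. Among them, NCU05628, beside NCU05627, rose to a mean of 6.65 in *cpc-1Δ* and passed as higher. In WT, NCU04903 and NCU00822 did so at means of 2.66 and 0.190. Of the neighbors with a ratio in *cpc-1Δ*, the closest to the limit was NCU02127, beside NCU02126, at a mean of 23.8, against 8.13 in 2% glucose medium, and at 91.0 in WT, against 8.77. NCU02126 had means of 16.6 against 4.74 in *cpc-1Δ* and 75.6 against 9.17 in WT.

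The annotated spans of 3 of the 23 genes overlap that of another gene, and reads there cannot be assigned with certainty, since the sources used here do not say whether strand was used. The overlapping gene was listed at 0 in all 9 libraries without 3-AT for *cdt-1* and at 0.327 or less for *gh28-2*. For NCU00591 the overlapping NCU00592 was listed at 0 in both WT libraries in 0.1% glucose medium and was at 14.4 and 13.1 in *cpc-1Δ*, against 24.5 and 24.0 in 2% glucose medium, so that it went the other way.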

How the data were processed

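RNA from mycelia was sequenced in 18 libraries of 7 groups. The labels name TruSeq reagents, whereas the methods of the study name NEBNext kits. The values deposited by the authors were RPKM per transcript, 1 file per library. The processing notes name TopHat2 and Cufflinks; versions, annotation and the total behind RPKM are not given in the sources used here. Of 10792 entries, 7 whose identifier holds a remark were dropped and transcripts of a gene were summed, giving 9730 genes, of which 9729 matched an NC12 annotation table used for symbols and gene order alone. Of these, 124 lacked a number in a *cpc-1Δ*, *cpc-1*(WT) library and were left out there. RPKM are not counts, so limma 3.58.1 (R 4.3.3) was run on log2(scaled RPKM + 1), on 9 libraries for comparisons under 3-AT with *cpc-1Δ*, *cpc-1*(WT) and on 15 otherwise, with Benjamini-Hochberg adjustment over all genes tested and a threshold of 0.05. The procedure was tested on simulated data. With 3 against 3 libraries, an exact permutation test of 1 gene cannot go below p = 0.1, so none is given. Python 3.11.15 with NumPy 2.4.6, pandas 2.3.3 and matplotlib 3.10.9 served for tables and figures.

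The genes and lists were chosen with earlier results of these data known. The 10 lists named 62 genes, and those whose name was not the symbol of their locus tag in the annotation table were left out, leaving 51. Genes named are those with a symbol, the 10 with the largest product of ratios, the 10 with the highest level in 0.1% glucose medium, the 5 strongest called in each direction with *cpc-1*(WT), 3 on each side of the limits, list and marker genes and *cpc-1*. NCU02126, NCU04904, NCU07385, NCU00592, the *matA* genes and the neighbors other than NCU02127 fall outside this rule and were named after their values were seen. Alternatives were the values as deposited, upper-quartile scaling, other limits of the rule, the first transcript alone, a pseudocount of 0.1, a filter on the mean, other sets of libraries, a replicate block, a variance trend and leaving out each library. Planned searches of promoters and proteins were not run.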

Additional observations from a re-analysis of the deposited data

Results flagged for a closer look

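For 6 of the 23 genes every library with 3-AT lay on one side of those without it in *cpc-1Δ* and on the other side in WT, as they did for 25.1% of the 4074 genes that could be chosen, so that the count is near the share of all genes; the differences between the strains were not tested, and the ratio in WT was bounded by the rule. The difference in the log2 ratio of 3-AT to no 3-AT, *cpc-1Δ* minus WT, was -1.86 for *mfa-1*, -1.44 for NCU03076, -1.18 for NCU05627, -0.63 for NCU07385, -0.53 for NCU00821 and 0.88 for NCU08541. With the values as deposited the signs stayed opposite for *mfa-1* (-1.82 in *cpc-1Δ* and 0.15 in WT), NCU03076 (-1.35 and 0.20), NCU05627 (-1.19 and 0.10) and NCU00821 (-0.58 and 0.06), but not for NCU07385 (-0.76 and -0.01) or NCU08541 (-0.09 and -0.87).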

How the results depend on the processing

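The rule found 23 genes with upper-quartile scaling or the first transcript alone, 30 with the values as deposited, 63 with a limit of 2, 11 with a limit of 4, and 50, of which 20 were among the 23, with neither a limit on the mean nor on 0 and 1 RPKM added. The 3 genes lost in this last setting were NCU00591, *cdt-2* and NCU09931. Without 1 library it found 21 to 26. With *cpc-1*(WT) under 3-AT, the 7 rises and 4 falls among the 23 genes became 11 and 4 with the values as deposited. Over all genes, the values as deposited gave 2556 rises and 392 falls (86.7% rises, beside 55.4% with scaling), and upper-quartile scaling 1023 and 1992 (33.9%). For this comparison, *gla-1* (0.25), NCU03648 (0.49), NCU08541 (0.30) and NCU04904 (0.32) passed with the values as deposited, NCU03648 (0.31) also in the fit of 18 libraries and *mfa-1* without 1 library. The replicate block gave 7 rises and 4 falls among the 23 genes and 1252 and 950 over all genes; the numbers do not pair the libraries, since deviations of same-numbered libraries correlated at -0.09 to 0.10.

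With the values as deposited, calls over all genes, higher and lower in turn, were 4059 and 1289 for low glucose in WT, 912 and 3079 for 3-AT in WT, 386 and 3949 for 3-AT in the mutant, 4247 and 664 for the mutant against WT in 2% glucose medium, 3725 and 1251 with 3-AT, and 4718 and 736 for the strain with *cpc-1*(WT) against WT. The log2 ratio of *cpc-1Δ* to WT in 0.1% glucose medium turned to 0.018 for *gla-1* with upper-quartile scaling. Depth is unknown, so no limit of detection can be given, and groups of 2 libraries give the least precise spread.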
